A study of Mus musculus with 9 samples.

Results

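Genes of autophagy and subunits of the vacuolar ATPase (V-ATPase) were read in tibialis anterior, a mostly fast muscle at the front of the shin, across 3 genotypes of mice. The genes were chosen by name: symbols that begin with Atp6v, or with Atg and a digit, plus 15 further autophagy and lysosome genes. This gave 55 genes, counting the 15 and the prefix genes in the array's annotation. Of these, 54 were measured, among 19505 genes with a symbol on the array, and Ctsd was not analysed here. The V-ATPase subunit Atp6v0c also has the prefix but is not in the 55 and was not analysed either. The 54 comprised 32 autophagy and lysosome genes, 21 V-ATPase subunits and Atp6v1fnb, which shares the prefix but is no subunit. Every gene had 1 probe set.

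The MCU knockout carried MCU-/- with MCUb+/+, the MCUb knockout carried MCU+/+ with MCUb-/-, and the controls carried MCU+/+ with MCUb+/+. MCU forms the pore of the mitochondrial calcium uniporter and MCUb is its paralogue in the same complex. Each genotype was measured on 3 Affymetrix Clariom S arrays, from mice 2 months old on the C57/BL6 strain. Whether the alleles were deleted in the whole body or in muscle alone, and whether the 3 samples of a group were separate animals, was not given in the sources used here, so the p-values refer to the spread among these 9 samples, part of which may be technical.

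Autophagy wraps cytoplasm, protein aggregates and damaged mitochondria in a double membrane and delivers them to the lysosome. The ULK1 kinase complex starts the process, a lipid kinase complex around Beclin 1 marks the membrane, and a ubiquitin-like conjugation system attaches Atg8 proteins such as LC3 to it. The V-ATPase is a rotary proton pump: its cytosolic V1 sector splits ATP and its membrane V0 sector carries the protons that acidify the lysosome. In muscle the system is known to clear damaged mitochondria and to supply amino acids in fasting, and the transcription factor TFEB drives many lysosomal and autophagy genes through E-box sites in their promoters.

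The labels and the tissue were checked first. Mcu had log2 levels of 6.80, 6.98 and 7.06 on the MCU knockout arrays, of 10.71, 11.06 and 10.81 on the MCUb knockout arrays, and of 10.38, 10.96 and 10.46 on the control arrays. Its log2 change in the MCU knockout was -3.65 (SE 0.20, adjusted p = 3.47e-05). For Mcub, not analysed here, no such check of the label was made. All 8 muscle fibre markers, Acta1 and Ckm among them, were above background on every array. Control replicate 3 stood apart from the rest: its first principal component score was -70.8, against -20.3 to 21.9 on the other arrays. Uty and Kdm5d, which lie on the Y chromosome, averaged 7.56 on replicate 2 and 7.24 on replicate 3 of the MCU knockout. They averaged 7.80 on replicate 1 of the MCUb knockout. The other 6 arrays, all controls among them, lay at 3.01 to 3.89. Read as sex, this level was mixed within each knockout but not within the controls. Its part in the changes against control therefore cannot be fully told apart from genotype.

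The background limit of an array, the 95th percentile of its 23 background sets, lay at a log2 level of 5.87 to 5.92. By this limit 41 of the 54 genes were above background on all 9 arrays, 6 on some and 7 on none. The 7 were Atg9b, Atp6v1fnb and the subunit isoforms Atp6v1b1, Atp6v1c2, Atp6v1e2, Atp6v0a4 and Atp6v0d2. Those isoforms are known chiefly from other places: Atp6v1b1 and Atp6v0a4 from acid-secreting cells of the kidney, Atp6v0d2 from osteoclasts and macrophages, and Atp6v1e2 from testis. Levels of different probe sets cannot be ranked against each other, so each gene is compared only with itself across genotypes.

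No gene of the set passed the threshold, an adjusted p under 0.05 in limma over all 22206 probe sets, in any of the 3 comparisons. Between MCU knockout and control, 0 of the 54 genes passed, where 0.14% of all probe sets did. At an unadjusted p under 0.05 there were 4, or 7.41% of the genes beside 10.1% of all probe sets, with 2 higher (4.76% of all probe sets) and 2 lower (5.35%). Between MCUb knockout and control 0 passed (0.0225% of all probe sets), and 5 had an unadjusted p under 0.05, 9.26% beside 8.11%, with 3 higher (3.9% of all probe sets) and 2 lower (4.21%). Between the knockouts 0 passed (0.158% of all probe sets), and 3 had an unadjusted p under 0.05, 5.56% beside 5.7%. The arrays of 4 genes did not overlap between MCU knockout and control (7.41%, beside 13.4% of all probe sets), and those of 4 did not between MCUb knockout and control (7.41%, beside 12.8%). These shares lay near or below those of the array as a whole.

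The median log2 change of the 54 genes was -0.05 in the MCU knockout and -0.06 in the MCUb knockout, against -0.02 and -0.03 over all probe sets. In the MCU knockout 22 genes (40.7%) lay above control, where 47.6% of all probe sets did, and in the MCUb knockout 24 (44.4%) did, beside 46%. Both comparisons share the same control arrays. Single changes ran from -1.16 to 0.59 in the MCU knockout and from -0.82 to 0.77 in the MCUb knockout.

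The intervals show how large a difference these arrays allow. For 35 of the 41 genes detected throughout, the 95% confidence interval of the change in the MCU knockout lay inside a 2-fold difference either way. In the MCUb knockout this held for 36 of 41. The genes whose interval reached 2-fold in the MCU knockout were Atg7, Atg10, Atp6v0b, Atp6v0e, Atp6v1b2 and Atp6v1h, and in the MCUb knockout Atg2a, Atp6v0a2, Atp6v0b, Atp6v0e and Atp6v1h. At the median SE of the set, a log2 change had to reach 1.35 in the MCU knockout and 1.64 in the MCUb knockout to pass.

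**Figure D1:**
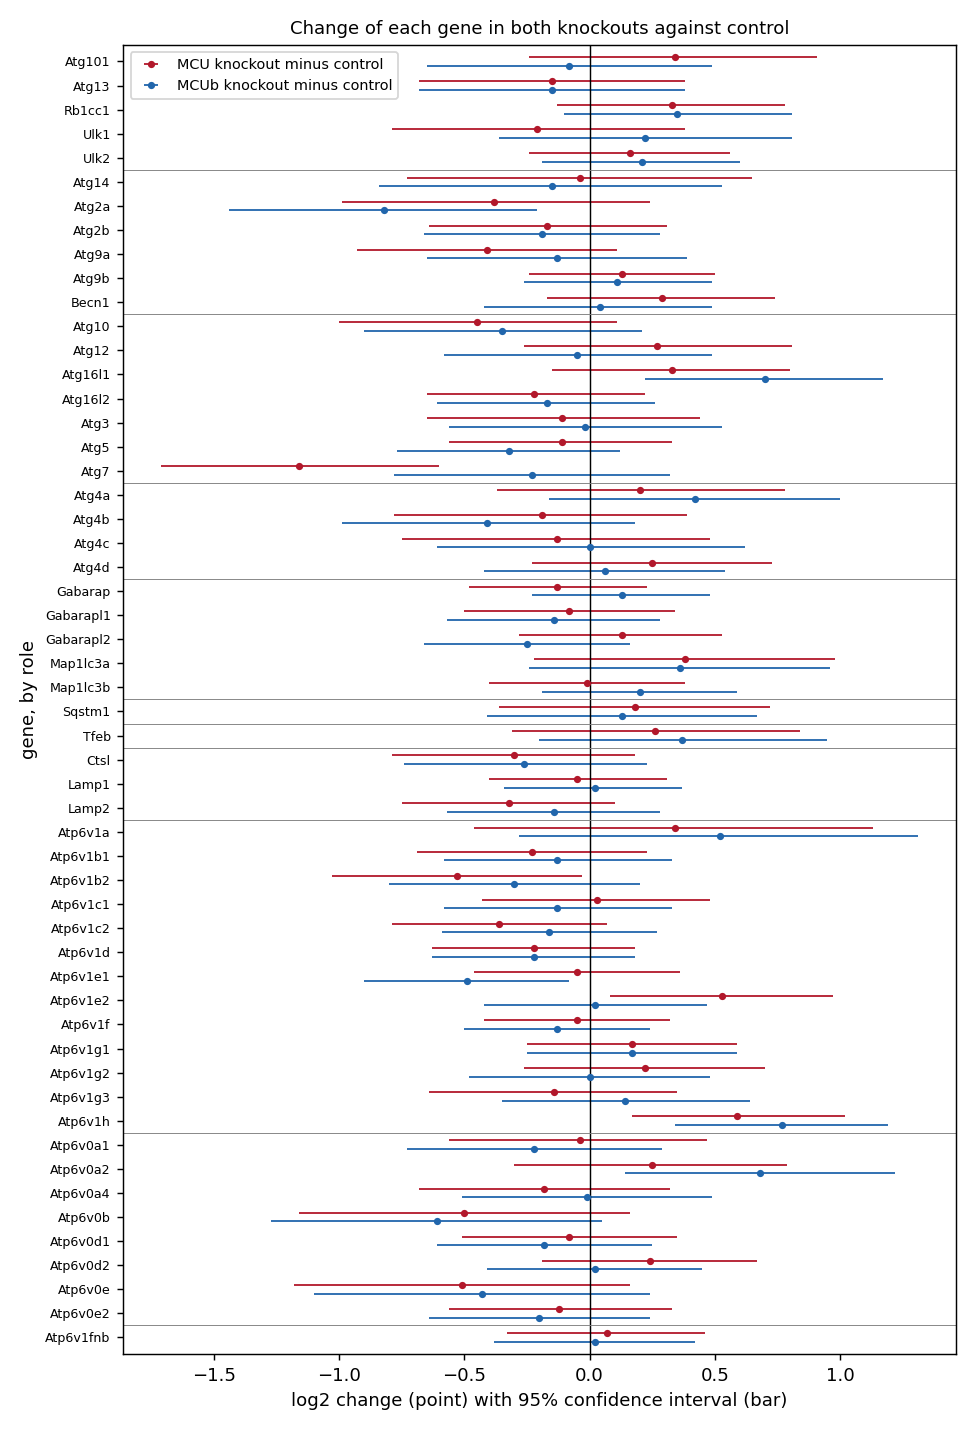
Log2 change of each of the 54 genes against control (x axis; points) with its 95% confidence interval (bars), for the MCU knockout (red) and the MCUb knockout (blue), genes grouped by role with lines between roles. Atg7 in the MCU knockout (-1.16) lies farthest from 0, and most intervals cross 0; none of the changes passed the adjusted threshold.

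Some of the 54 genes carry the E-box CACGTG, the core of the site that TFEB reads, in their promoters. RefSeq promoters (GRCm38.p6, 250 bases before to 50 after the start) were matched for 43 of the 54 genes. CACGTG, which reads the same on both strands, occurred in 10 of the 43 (23.3%), against 8.09% of all 27025 genes with a promoter and 8.91% of the 17492 protein-coding ones. The longer TCACGTGA, which contains it, occurred in 4 (9.3%), against 1.12% of all genes. The full CLEAR consensus, which extends it by a base on either side, occurred in 0 of 43, against 0.37% of all genes. GTAAACA, a core of sites that FoxO factors bind, was found on either strand in 1 of 43 (2.33%), against 4.05% of all genes. The 10 genes were Atg3, Atg5, Atg7, Atg14, Ctsl, Lamp1, Atp6v1a, Atp6v0b, Atp6v0d1 and Atp6v0e. A match describes the letters in this window and shows no binding.

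The 150 bases before the start are shown for 5 of the 10, because they span the range of changes in the MCU knockout, from Atg7 (-1.16) through Atp6v0b (-0.50), Atg3 (-0.11) and Lamp1 (-0.05) to Atp6v1a (0.34). Capitals mark CACGTG, and each sequence runs 5′ to 3′ on the strand of its gene. They lie at chr6:114670946-114671095 (plus strand) for Atg7, chr4:117887330-117887479 (minus strand) for Atp6v0b, chr16:45158679-45158828 (plus strand) for Atg3, chr8:13159011-13159160 (plus strand) for Lamp1 and chr16:44139260-44139409 (minus strand) for Atp6v1a, all in GRCm38.p6.
Atg7: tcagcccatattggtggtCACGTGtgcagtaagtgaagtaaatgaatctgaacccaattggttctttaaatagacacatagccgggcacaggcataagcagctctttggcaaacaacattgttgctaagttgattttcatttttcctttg
Atp6v0b: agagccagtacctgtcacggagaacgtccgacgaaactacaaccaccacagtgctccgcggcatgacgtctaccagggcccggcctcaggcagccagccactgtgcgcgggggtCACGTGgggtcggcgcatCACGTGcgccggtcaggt
Atg3: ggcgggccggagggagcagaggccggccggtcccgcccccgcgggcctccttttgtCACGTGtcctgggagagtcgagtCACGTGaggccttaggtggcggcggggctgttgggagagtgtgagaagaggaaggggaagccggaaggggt
Lamp1: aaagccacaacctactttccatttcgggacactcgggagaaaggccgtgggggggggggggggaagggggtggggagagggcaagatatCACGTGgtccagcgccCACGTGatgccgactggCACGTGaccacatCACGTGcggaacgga
Atp6v1a: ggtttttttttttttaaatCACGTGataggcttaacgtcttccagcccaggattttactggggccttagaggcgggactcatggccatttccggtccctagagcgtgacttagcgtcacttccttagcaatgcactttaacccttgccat
Lamp1 held 4 matches within this stretch, Atg3 and Atp6v0b 2 each, and Atg7 and Atp6v1a 1 each.

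The 10 genes with the E-box had changes between -1.16 and 0.34 in the MCU knockout, with 9 below control and 1 above and a median of -0.11. In the MCUb knockout they ran from -0.61 to 0.52, with 8 below and 2 above and a median of -0.20. The 33 genes without it had medians of -0.12 and -0.13 in the same comparisons. Of these, 22 lay below control and 11 above in the MCU knockout. In the MCUb knockout 19 lay below and 12 above, and the rest were level with control as rounded. Tfeb itself had log2 levels of 7.95, 7.87 and 7.84 in the MCU knockout and of 8.09, 7.87 and 8.04 in the MCUb knockout, against 8.12, 7.79 and 6.96 in control. The knockout arrays lay close together, and control replicate 3 was the lowest of the 9. Its change was 0.26 in the MCU knockout (95% interval -0.31 to 0.84, adjusted p = 0.756) and 0.37 in the MCUb knockout (-0.20 to 0.95, adjusted p = 0.716). Without control replicate 3 the first of these was -0.07 and the second 0.04.

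Atg7, the E1-like enzyme that activates both Atg12 and the Atg8 proteins for conjugation, had the largest difference of the set. Its log2 levels were 6.69, 6.74 and 6.98 in the MCU knockout and 8.29, 7.66 and 7.25 in the MCUb knockout, against 8.10, 7.75 and 8.03 in control. The MCU knockout arrays were tight and below all 6 others, while the MCUb knockout arrays spread from below the lowest control to above the highest. The group means were 6.80 ± 0.15, 7.73 ± 0.52 and 7.96 ± 0.18 (SD, n = 3 each) for MCU knockout, MCUb knockout and control. In the MCU knockout the change from control was -1.16 (95% interval -1.71 to -0.60), or 2.23-fold lower, with an unadjusted p of 0.000744 and an adjusted p of 0.178 in limma. Over the alternative settings it lay between -1.47 and -1.09, with adjusted p from 0.0889 to 0.42, and it passed in none. In the MCUb knockout the change was -0.23 (-0.78 to 0.32, adjusted p = 0.819). The direct difference of MCU knockout from MCUb knockout was -0.93 (-1.48 to -0.38, adjusted p = 0.436).

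None of the measured neighbours of Atg7 had a change of its size in the MCU knockout. Of the 10 genes measured next to it on chromosome 6, 5 on each side in RefSeq order, 0 had an unadjusted p under 0.05 in the MCU knockout. Over all probe sets 10.1% did. The changes of the 10 ran from -0.43 to 0.46. Sec13, at -0.43, nevertheless lay below control on all MCU knockout arrays (unadjusted p = 0.0551, adjusted p = 0.505). Of the 10, 2 had an unadjusted p under 0.05 in the MCUb knockout, beside 8.11% of all probe sets. These were Sec13 at -0.56 and Timp4 at 0.85. These neighbours were looked up after the value of Atg7 was seen.

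The other conjugation enzymes lay closer to control than Atg7 in the MCU knockout, but some lay farther from it than Atg7 in the MCUb knockout. Atg16l1, the scaffold that fixes the site of Atg8 attachment, had levels of 6.39, 6.40 and 6.12 in the MCU knockout and 6.77, 6.62 and 6.64 in the MCUb knockout, against 5.67, 6.43 and 5.83 in control. All 3 MCUb knockout arrays lay above every control array, of which only 1 was above background. The change in the MCUb knockout was 0.70 (0.22 to 1.17, unadjusted p = 0.00786, adjusted p = 0.534), and in the MCU knockout it was 0.33 (adjusted p = 0.631). Atg10, the E2-like enzyme for Atg12, stood at 9.39, 9.02 and 8.75 in the MCU knockout and 8.84, 9.22 and 9.40 in the MCUb knockout, against 9.17, 9.40 and 9.93 in control. Its groups overlapped, with a change of -0.45 in the MCU knockout (-1.0 to 0.11, adjusted p = 0.581). Of the 7 conjugation genes, 5 lay below control in the MCU knockout and 6 in the MCUb knockout. Apart from Atg7, changes of Atg3, Atg5, Atg12 and Atg16l2 were between -0.32 and 0.27 in both knockouts.

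The genes that start autophagy showed small differences. The 5 of the initiation kinase complex had a median change of 0.16 in the MCU knockout and 0.21 in the MCUb knockout, with 3 above control and 2 below in each. Ulk1, the kinase itself, had levels of 7.53, 7.57 and 8.28 in the MCU knockout and 8.67, 8.01 and 7.99 in the MCUb knockout, against 7.89, 8.31 and 7.81 in control. These ranges overlapped, and the changes of -0.21 (-0.79 to 0.38) and 0.22 (-0.36 to 0.81) did not pass (adjusted p = 0.816 and 0.833). With 1 array left out they ran from -0.45 to -0.06 and from 0.00 to 0.37. Rb1cc1, the scaffold FIP200, stood at 11.72, 11.67 and 12.04 in the MCU knockout and 11.75, 12.19 and 11.56 in the MCUb knockout, against 11.61, 11.46 and 11.37 in control. All MCU knockout arrays lay above the controls, but the change of 0.33 (-0.13 to 0.78, adjusted p = 0.612) did not pass, nor did that of 0.35 in the MCUb knockout (adjusted p = 0.663). The other kinase Ulk2 and the adaptors Atg13 and Atg101 had changes between -0.15 and 0.34 in both knockouts.

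Among the genes of the Beclin 1 complex and of membrane supply, Atg2a had the smallest p in the MCUb knockout. This lipid transfer protein, which feeds the growing membrane, had levels of 7.55, 7.53 and 7.04 in the MCU knockout and 7.0, 7.33 and 6.44 in the MCUb knockout, against 7.88, 8.07 and 7.29 in control. The MCUb knockout arrays were the lowest group, but their highest value, 7.33, lay just above the lowest control, 7.29. Its change there was -0.82 (-1.44 to -0.21, unadjusted p = 0.013, adjusted p = 0.534), and in the MCU knockout -0.38 (adjusted p = 0.674). Its paralogue Atg2b had changes of -0.17 and -0.19 in the same order of MCU knockout and MCUb knockout.

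Becn1, which encodes Beclin 1, had levels of 6.89, 7.22 and 7.12 in the MCU knockout and 6.91, 6.64 and 6.92 in the MCUb knockout, against 6.98, 6.97 and 6.41 in control. The groups overlapped, with changes of 0.29 (-0.17 to 0.74, adjusted p = 0.664) and 0.04 (-0.42 to 0.49, adjusted p = 0.973). Atg9a, the membrane protein of the vesicles that seed autophagosomes, stood at 11.78, 11.35 and 11.60 in the MCU knockout and 11.92, 11.52 and 12.14 in the MCUb knockout, against 12.39, 11.87 and 11.70 in control. Its change in the MCU knockout was -0.41 (-0.93 to 0.11, adjusted p = 0.588). Its paralogue Atg9b was not above background on any array, and Atg14, the subunit that directs the lipid kinase to autophagy, was above it on 5 of 9.

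The Atg8 proteins, which coat the autophagosome, and the receptor p62 are the usual markers of autophagy, though mostly at the protein level. Map1lc3b, the LC3 form in widest use, had levels of 15.42, 15.30 and 15.32 in the MCU knockout and 15.62, 15.41 and 15.65 in the MCUb knockout, against 15.11, 15.52 and 15.44 in control. The change in the MCU knockout was -0.01, with an interval of -0.40 to 0.38, and in the MCUb knockout 0.20 (-0.19 to 0.59, adjusted p of 0.99 and 0.776). Map1lc3a stood at 11.21, 11.76 and 12.18 in the MCU knockout and 12.02, 11.50 and 11.56 in the MCUb knockout, against 11.63, 11.39 and 10.99 in control. It was among the more variable genes, with a within-group SD of 0.38, and its changes of 0.38 and 0.36 did not pass (adjusted p = 0.663 and 0.737).

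Gabarapl1, a member of the GABARAP branch known to respond to FoxO factors in muscle, had levels of 11.29, 11.16 and 10.88 in the MCU knockout and 11.22, 11.02 and 10.89 in the MCUb knockout, against 11.39, 11.17 and 11 in control. The changes were -0.08 (-0.50 to 0.34) and -0.14 (-0.57 to 0.28). Gabarapl2 and Gabarap lay on opposite sides between the knockouts. Gabarapl2 had 12.35, 12.38 and 12.50 in the MCU knockout, against 11.95, 12.30 and 11.84 in the MCUb knockout, with 12.35, 12.40 and 12.09 in control. Every MCU knockout array lay above every MCUb knockout array, a difference of 0.38 (-0.03 to 0.79, adjusted p = 0.903). For Gabarap the MCU knockout arrays (13.37, 13.26 and 13.13) all lay below the MCUb knockout arrays (13.49, 13.43 and 13.59), a difference of -0.25 (-0.61 to 0.11) that also did not pass. Between the knockouts, 7 of the 54 genes had groups that did not overlap (13%), beside 12.8% of all probe sets.

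Sqstm1, which encodes the receptor p62 that ties ubiquitin-marked cargo to LC3, had levels of 14.20, 14.62 and 14.82 in the MCU knockout and 14.97, 14.16 and 14.37 in the MCUb knockout, against 14.39, 14.51 and 14.20 in control. The arrays with the higher values in each knockout were MCU knockout replicates 2 and 3 and MCUb knockout replicate 1, the same 3 on which the Y-linked level was high. The changes were 0.18 (-0.36 to 0.72, adjusted p = 0.829) and 0.13 (-0.41 to 0.67, adjusted p = 0.904). Adding the Y-linked level to the model gave -0.19 and -0.05. The part of the Y-linked level in the values of Sqstm1 was not otherwise tested. Of the Atg4 proteases, which trim the Atg8 proteins, Atg4a stood at 8.99, 9.28 and 10 in the MCU knockout and 9.73, 9.84 and 9.35 in the MCUb knockout, against 9.23, 9.41 and 9.02 in control. Its groups overlapped, and its change in the MCUb knockout was 0.42 (-0.16 to 1.0, adjusted p = 0.683). The other 3 proteases had changes between -0.41 and 0.25.

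**Figure D2:**
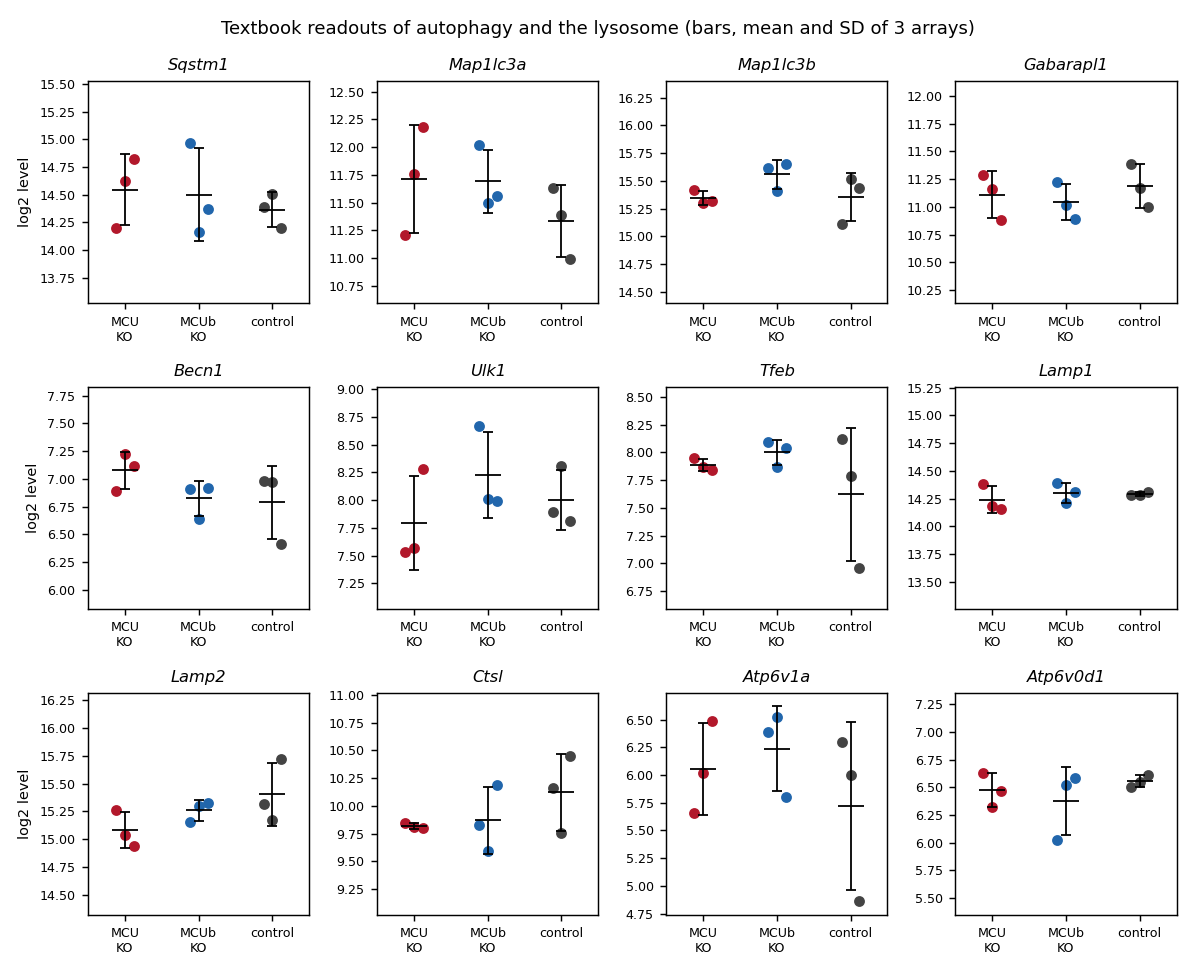
Log2 level (y axis) of 12 of the 13 textbook readouts on each array (points: MCU knockout red, MCUb knockout blue, control grey), with the mean and SD of 3 arrays as bars; each panel spans at least 2 log2 units. Atp6v1h, whose knockout arrays all lie above control, is plotted with the genes of smallest p; the groups overlap in all 12 panels here, and the lowest value of Tfeb (6.96) and of Atp6v1a (4.86) is the same control array.

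The lysosomal members were level or slightly below control. Lamp1, a main protein of the lysosomal membrane, had levels of 14.38, 14.18 and 14.16 in the MCU knockout and 14.39, 14.21 and 14.31 in the MCUb knockout, against 14.28, 14.28 and 14.31 in control. Its changes of -0.05 (-0.40 to 0.31) and 0.02 (-0.34 to 0.37) were among the best bounded of the set. Lamp2, whose loss causes a muscle disease with stalled autophagy in humans, stood at 15.26, 15.04 and 14.94 in the MCU knockout and 15.15, 15.30 and 15.33 in the MCUb knockout, against 15.32, 15.17 and 15.72 in control. The change in the MCU knockout was -0.32 (-0.75 to 0.10, adjusted p = 0.594). Ctsl, the protease cathepsin L, which is known to be raised in atrophying muscle, had 9.85, 9.81 and 9.80 in the MCU knockout and 9.83, 9.59 and 10.19 in the MCUb knockout, against 10.16, 9.76 and 10.45 in control. Its changes were -0.30 (-0.79 to 0.18, adjusted p = 0.671) and -0.26 (-0.74 to 0.23, adjusted p = 0.769).

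Atp6v1h was the member of the V-ATPase that differed most from control, and on the same side in both knockouts. It encodes subunit H of the V1 sector, a regulatory subunit that the assembled pump needs to split ATP. Its levels were 7.42, 6.90 and 7.17 in the MCU knockout and 7.46, 7.13 and 7.40 in the MCUb knockout, against 6.60, 6.69 and 6.41 in control. All 6 knockout arrays lay above all 3 control arrays. The changes were 0.59 in the MCU knockout (0.17 to 1.02, unadjusted p = 0.0109, adjusted p = 0.372) and 0.77 in the MCUb knockout (0.34 to 1.19, unadjusted p = 0.0023, adjusted p = 0.469). Neither passed, both rest on the same controls, and without control replicate 3 they were 0.52 and 0.69. The knockouts differed from each other by -0.17 (-0.60 to 0.26). Of the 10 genes measured next to it on chromosome 1, one of which is Rb1cc1, 0 had an unadjusted p under 0.05 in either knockout. Over all probe sets 10.1% did in the MCU knockout and 8.11% in the MCUb knockout.

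The rest of the V1 sector did not follow subunit H. Of its 13 measured subunits, 6 lay above control and 7 below in each knockout, with medians of -0.05 in the MCU knockout and -0.13 in the MCUb knockout. Atp6v1a, the catalytic subunit, had levels of 5.66, 6.02 and 6.49 in the MCU knockout and 6.39, 6.52 and 5.80 in the MCUb knockout, against 6.30, 6.0 and 4.86 in control. It was above background on only 2 arrays of each group and had the widest within-group SD of the set, 0.55. Its changes of 0.34 (-0.46 to 1.13) and 0.52 (-0.28 to 1.31) did not pass. Atp6v1b2, its partner in the ATP-splitting ring, stood at 10.78, 10.60 and 10.86 in the MCU knockout and 10.84, 11.33 and 10.76 in the MCUb knockout, against 11.51, 11.42 and 10.89 in control. Every MCU knockout array lay below the controls, by as little as 10.86 against 10.89, and the change was -0.53 (-1.03 to -0.03, unadjusted p = 0.0391, adjusted p = 0.474).

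Subunit E is part of the stalk that holds the ring still, and its main isoform lay below control on every MCUb knockout array. Atp6v1e1 had 13.98, 13.99 and 13.90 in the MCU knockout and 13.33, 13.52 and 13.70 in the MCUb knockout, against 13.87, 13.87 and 14.28 in control. The change in the MCUb knockout was -0.49 (-0.90 to -0.08, unadjusted p = 0.0242, adjusted p = 0.565), in the MCU knockout it was -0.05, and the knockouts differed by 0.44 (0.03 to 0.85, adjusted p = 0.847). The isoform Atp6v1e2 had 5.11, 5.48 and 5.59 in the MCU knockout and 4.88, 4.81 and 4.96 in the MCUb knockout, against 4.85, 5.15 and 4.59 in control. All 9 of its values were below the background limit, so no fold is given (adjusted p = 0.43 in the MCU knockout and 0.802 between the knockouts). The same holds for Atp6v1c2, with 4.10, 4.48 and 4.19 in the MCU knockout and 4.45, 4.40 and 4.52 in the MCUb knockout, against 4.51, 4.39 and 4.95 in control (adjusted p = 0.564 in the MCU knockout). Atp6v1f, a rotor subunit, lay below control on all MCUb knockout arrays with a change of only -0.13 (-0.50 to 0.24), and Atp6v1c1, Atp6v1d and Atp6v1g1 had changes between -0.22 and 0.17. The G isoforms Atp6v1g2 and Atp6v1g3 were each above background on 1 array.

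**Figure D3:**
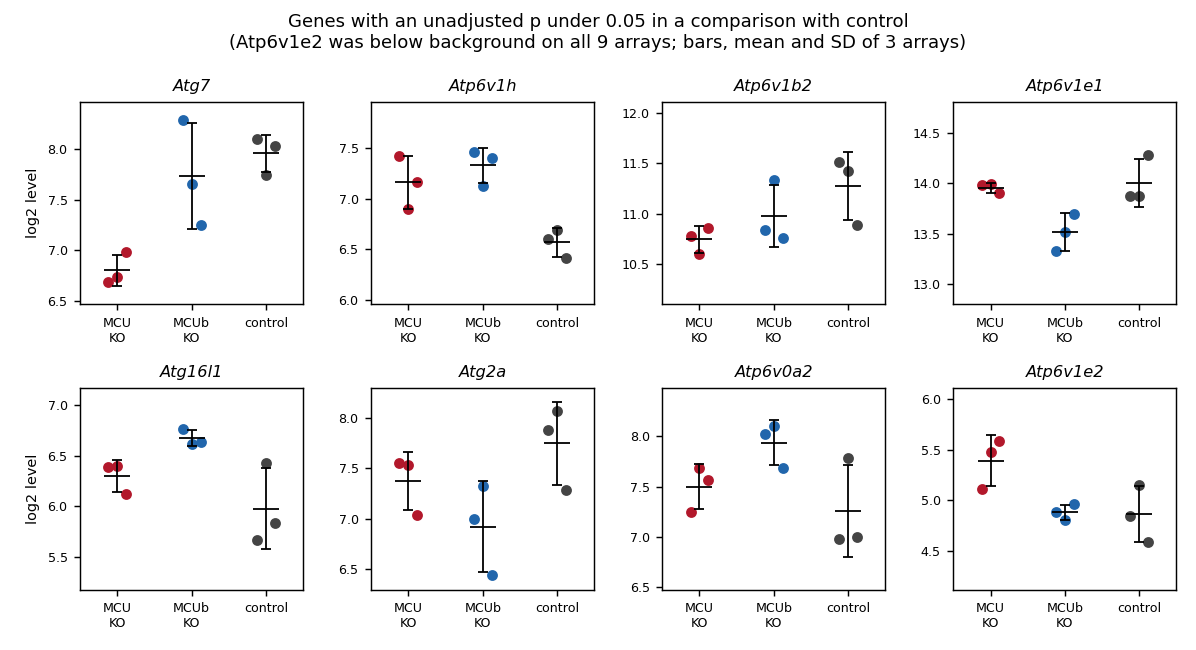
Log2 level (y axis) on each array of the 8 genes with an unadjusted p under 0.05 in a comparison with control (points: MCU knockout red, MCUb knockout blue, control grey), with the mean and SD of 3 arrays as bars. Atg7 is low on all 3 MCU knockout arrays and Atp6v1h is high on all 6 knockout arrays, while Atp6v1b2 (MCU knockout), Atg16l1 and Atp6v1e1 (MCUb knockout) are the other genes whose groups do not overlap with control.

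In the V0 sector 6 of 8 subunits lay below control in each knockout, with medians of -0.10 in the MCU knockout and -0.19 in the MCUb knockout. Atp6v0b, of the proton-carrying ring, had levels of 10.04, 10.75 and 10.54 in the MCU knockout and 10.17, 10.51 and 10.29 in the MCUb knockout, against 10.92, 10.32 and 11.57 in control. The change was -0.50 (-1.16 to 0.16, adjusted p = 0.602) in the MCU knockout and -0.61 (-1.27 to 0.05, adjusted p = 0.62) in the MCUb knockout, where it was -0.29 without control replicate 3. Atp6v0e, a small membrane subunit, stood at 7.78, 8.63 and 8.29 in the MCU knockout and 7.95, 8.40 and 8.60 in the MCUb knockout, against 8.63, 8.29 and 9.33 in control. Its change in the MCU knockout was -0.51 (-1.18 to 0.16, adjusted p = 0.594), and -0.22 without that array. For both genes control replicate 3 was the highest of the 9 arrays.

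Subunit a, which guides the pump to its membrane, exists in several isoforms that differ by organelle. Atp6v0a2, known from the Golgi apparatus and endosomes, had levels of 7.25, 7.68 and 7.56 in the MCU knockout and 8.02, 8.10 and 7.68 in the MCUb knockout, against 6.98, 7.78 and 7.0 in control. The MCUb knockout was the highest group but overlapped with control replicate 2, with a change of 0.68 (0.14 to 1.22, unadjusted p = 0.0185, adjusted p = 0.556). In the MCU knockout the change was 0.25 (adjusted p = 0.758). Atp6v0a1 had changes of -0.04 in the MCU knockout and -0.22 in the MCUb knockout. Atp6v0d1, the subunit that joins the membrane ring to the rotor, stood at 6.63, 6.32 and 6.47 in the MCU knockout and 6.02, 6.52 and 6.58 in the MCUb knockout, against 6.50, 6.55 and 6.61 in control, with changes of -0.08 (-0.51 to 0.35) and -0.18 (-0.61 to 0.25). Atp6v0e2, the paralogue of Atp6v0e, had changes of -0.12 and -0.20. Atp6v0c, the main ring subunit, was not analysed here.

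Control replicate 3 carried an unequal part of the spread. It held the highest or lowest value of the 9 arrays for 27 of the 54 genes (50%), against 40.5% of all probe sets, and between 6 and 16 of the genes had their extreme on each of the other arrays. The median within-group SD was 0.26 for the 54 genes and 0.29 for all probe sets. The median deviation of the genes from their own means lay between -0.08 and 0.04 on every array.

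**Figure D4:**
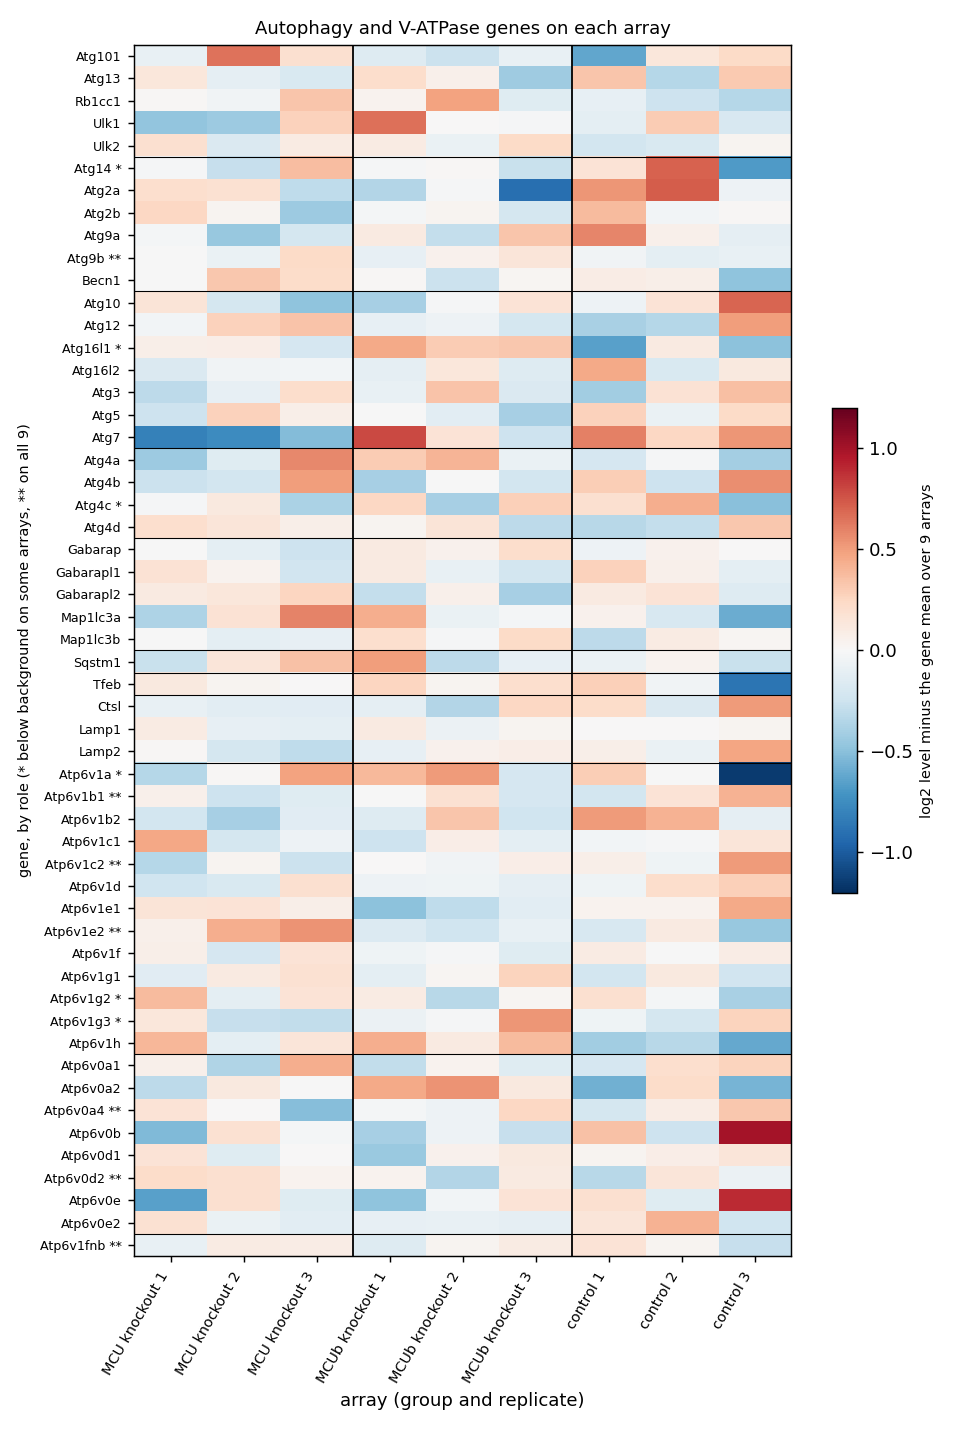
Log2 level of each of the 54 genes minus its mean over the 9 arrays (colour), with genes by role down the page and the arrays of MCU knockout, MCUb knockout and control from left to right. The strongest colours of control replicate 3 (Atp6v1a and Tfeb low, Atp6v0b and Atp6v0e high) stand in the last column, and the row of Atg7 is blue on the 3 MCU knockout arrays.

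Other genes of the pathway, from lists kept apart from the set, did not pass either, with 0 of 129 measured at an adjusted p under 0.05 in each comparison with control. Among 31 upstream regulators, 0 had an unadjusted p under 0.05 above control and 5 (16.1%) below it in the MCU knockout, where 4.76% and 5.35% of all probe sets did, and 0 and 1 (3.23%) in the MCUb knockout, beside 3.9% and 4.21%. The same shares of all probe sets are the background of the counts that follow. Mitf, a transcription factor of the same family as TFEB, had 8.11, 8.46 and 8.01 in the MCU knockout and 9.08, 9.39 and 9.04 in the MCUb knockout, against 9.12, 8.97 and 9.45 in control. All MCU knockout arrays lay below the other 6, with a change of -0.98 (SE 0.20, adjusted p = 0.155). Mtor, the nutrient-sensing kinase that holds autophagy back, stood at 6.58, 6.99 and 7.27 in the MCU knockout and 7.43, 8.32 and 7.60 in the MCUb knockout, against 9.13, 7.46 and 8.45 in control. Its change in the MCU knockout was -1.40 (SE 0.39, adjusted p = 0.311), and it reached an adjusted p of 0.0494, at a change of -1.84, only without control replicate 2. Tsc2, which restrains mTOR, had a change of -0.54 (adjusted p = 0.373) in the MCU knockout. In the MCUb knockout Rraga, a GTPase that recruits mTOR to the lysosome, was at -0.67 (SE 0.19, adjusted p = 0.477), Rheb, which activates mTOR there, at -0.40, and Lamtor5 at -0.34.

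Among 16 partners of the lipid kinase and readers of its product, 1 (6.25%) lay above control and 2 (12.5%) below at an unadjusted p under 0.05 in the MCU knockout, and 0 and 2 (12.5%) in the MCUb knockout. Rubcn, which encodes Rubicon, a brake on autophagosome maturation, had 6.41, 5.89 and 6.23 in the MCU knockout and 6.01, 5.86 and 5.79 in the MCUb knockout, against 7.75, 7.20 and 6.31 in control. Control replicate 3 lay among the MCU knockout values, and Rubcn was above background on 2 MCU knockout arrays, 1 MCUb knockout array and all controls. The changes were -0.91 (SE 0.31, adjusted p = 0.385) and -1.2 (SE 0.31, adjusted p = 0.469). Mtmr14, a phosphatase of the lipid, was at 0.56 in the MCU knockout. Tecpr1, also among the smallest p there, had all 9 values below the background limit. In the MCUb knockout Wipi1 was at -0.47 and Pik3c3, the kinase itself, at 0.64. With 1 array left out Pik3c3 ran from 0.33 to 0.97 there.

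The 11 other cargo receptors had 0 genes above and 2 (18.2%) below control at an unadjusted p under 0.05 in the MCU knockout, and 1 (9.09%) and 0 in the MCUb knockout. The mitophagy receptors Bnip3 (9.35, 9.57 and 9.77 in the MCU knockout, against 9.86, 10.19 and 10.15 in control) and Bnip3l (11.85, 11.87 and 11.96, against 12.38, 12.02 and 12.78) lay below control on every MCU knockout array. Both had a change of -0.50 (adjusted p = 0.423 and 0.472), and in the MCUb knockout they were at 0.03 and -0.18. Fundc1, a further mitophagy receptor of this list, went the other way and lay above control on every MCU knockout array. Its change was 0.44 there (adjusted p = 0.554) and -0.06 in the MCUb knockout. Nbr1 was at 0.95 in the MCUb knockout (SE 0.35, adjusted p = 0.562) and Ncoa4, the ferritin receptor, at 0.27 there, and Calcoco1 was at 0.55 in the MCU knockout and 0.59 in the MCUb knockout. With 1 array left out Ncoa4 ran from 0.09 to 0.47 in the MCUb knockout, and Calcoco1 from 0.28 to 0.81 in the MCU knockout and from 0.32 to 0.85 in the MCUb knockout. Of the 13 fusion genes, 9 lay above control in the MCU knockout and 11 in the MCUb knockout, whatever their p. Over all probe sets 47.6% and 46% did, and both comparisons share the control arrays. At an unadjusted p under 0.05, 0 lay above and 0 below in the MCU knockout, and 1 (7.69%) and 0 in the MCUb knockout. The named ones were Vps16 (-0.71), Rab7 (0.31) and Vamp8 (0.42) in the MCU knockout, and Tgfbrap1 (0.63), Plekhm1 (0.35) and Vamp8 (0.41) in the MCUb knockout. Vps16 overlapped with control in the MCU knockout, and with 1 array left out it ran from -1.06 to -0.40 there.

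Of 15 accessory and assembly genes of the V-ATPase, 1 (6.67%) lay above and 2 (13.3%) below control at an unadjusted p under 0.05 in the MCU knockout, and 1 (6.67%) and 0 in the MCUb knockout. Ccdc115, an assembly factor, was at -0.78 (SE 0.26, adjusted p = 0.374) and Rogdi at -0.68 in the MCU knockout, with Ccdc115 at -0.35 and Dmxl2, which helps the sectors assemble, at 0.46 in the MCUb knockout. With 1 array left out the last pair ran from -0.63 to -0.06 and from 0.20 to 0.68. Tcirg1, the a3 isoform known from osteoclasts and lysosomes, had 5.92, 5.68 and 5.90 in the MCU knockout and 5.87, 5.91 and 6.40 in the MCUb knockout, against 5.74, 4.92 and 5.18 in control. It was above background on only 2 arrays of each knockout and on no control array, and most of its values lay near the limit. Its adjusted p was 0.474 and 0.534 in the MCU knockout and the MCUb knockout.

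Among 43 further lysosomal genes, 5 (11.6%) lay above and 3 (6.98%) below control at an unadjusted p under 0.05 in the MCU knockout, beside 4.76% and 5.35% of all probe sets. Of the same genes, 5 (11.6%) lay above and 2 (4.65%) below in the MCUb knockout, beside 3.9% and 4.21%. Idua, an enzyme that breaks down glycosaminoglycans, had 9.07, 8.81 and 8.86 in the MCU knockout and 9.10, 9.27 and 9.18 in the MCUb knockout, against 9.83, 9.70 and 10.42 in control. All 6 knockout arrays lay below the controls, with changes of -1.07 (SE 0.21, adjusted p = 0.126) and -0.80 (SE 0.21, adjusted p = 0.469). Lipa, lysosomal acid lipase, stood at 6.57, 6.71 and 6.54 in the MCU knockout and 5.87, 6.16 and 6.04 in the MCUb knockout, against 5.87, 5.89 and 5.63 in control, with a change of 0.81 (SE 0.17, adjusted p = 0.162) in the MCU knockout. It was above background on all MCU knockout arrays, 2 MCUb knockout arrays and 1 control array. Asah1, acid ceramidase, was at 0.88 (SE 0.29, adjusted p = 0.373) there. In the MCUb knockout Man2b1, a mannosidase, was at 0.80 and Ctsh, cathepsin H, at 0.93 (adjusted p = 0.561 and 0.562).

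Other cells of the muscle hold lysosomes too, and in whole tissue fewer cells of a type and less RNA per cell cannot be told apart. The mean log2 level of 9 macrophage markers ran from 6.64 to 7.08 in the MCU knockout and from 6.17 to 7.25 in the MCUb knockout, against 6.50 to 7.10 in control, and 3 of the 9 were above background on every array and 2 on none. In the MCU knockout Adgre1 (0.75) and Csf1r (0.80) had an unadjusted p under 0.05 above control (22.2% of the 9, beside 4.76% of all probe sets), while Mrc1 (-1.25, adjusted p = 0.496) and Laptm5 (-0.39) lay below control on every array. None (0 of the 9) in the MCUb knockout had an unadjusted p under 0.05. Fibroblast markers ran from 9.68 to 11.05, from 9.78 to 10.62 and from 9.71 to 10.50 in the same order of groups. The mean level of 7 endothelial markers separated the knockouts, with 9.01 to 9.12 in the MCU knockout and 8.26 to 8.84 in the MCUb knockout. In control it was 8.65 to 9.47. Of the 7, 2 (28.6%), Cldn5 and Kdr, had knockout groups that did not overlap, beside 12.8% of all probe sets. Pecam1 went the other way, at -0.15 between the knockouts and 0.26 in the MCUb knockout against control. Against control, Cldn5 was at -1.21 (adjusted p = 0.477) and Kdr at -1.09 (adjusted p = 0.555) in the MCUb knockout. They were the 2 of 7 below control there at an unadjusted p under 0.05 (28.6%, beside 4.21% of all probe sets). Cldn5 differed between the knockouts by 1.76 (adjusted p = 0.098). The mean level of 6 adipocyte markers also separated the knockouts, with 8.38 to 8.52 in the MCU knockout and 8.01 to 8.26 in the MCUb knockout. In control it was 8.25 to 8.67. Between the knockouts the median difference of the 6 was 0.17. The largest was that of Car3, at 0.98, and the others ran from -0.10 (Lep) to 0.27 (Cidec). The separation of the mean thus rested largely on Car3. Of the 6, 1 (16.7%) had knockout groups that did not overlap, beside 12.8% of all probe sets, and 3 were above background on no array. Of 6 osteoclast and dendritic cell markers 5 were above background on no array. Their part in the values above was not tested.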

How the data were processed

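The deposited values are 1 per probe set and array. The submitters' processing notes name Affymetrix Expression Console, and leave its version, summarisation, normalization and logarithm base open (not given in the sources used here). The values ranged between 2.46 and 19.9, so the deposited scale was taken to be log2, and every fold rests on that. Of 28846 features per array, 6640 controls were left out and 22206 probe sets tested.

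Platform annotation gave gene names, and RefSeq (GRCm38.p6) gave chromosomes and promoters. The package limma 3.58.1, run in R 4.3.3, compared the genotypes with lmFit and eBayes on all 9 arrays without covariates, two-sided, with 6 residual and 5.06 prior degrees of freedom and Benjamini-Hochberg adjustment over all probe sets at 0.05. The script was tested on simulated data. Members and lists were chosen with earlier results of these data known. Array values are given for the 8 members of smallest p per comparison and for textbook readouts, and up to 3 genes of each other list per comparison with control are named. Other members named with values, and Fundc1, were chosen after their values were seen. The number of arrays limits the precision.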

Additional observations from a re-analysis of the deposited data

How the results depend on the processing

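The 18 other settings were a filter on dim probe sets (above background on at least 3 arrays), quantile normalization, median centring, a trend and robust prior, array weights, only the 2 groups compared, a replicate block, the Y-linked level as a covariate, the mean over probe sets, and each array left out. The mean over probe sets could not change a value of the 54 genes, which have 1 probe set each, so it bears on nothing here. In the other 17, 0 of the 54 genes passed in each comparison, and the median change stayed between -0.06 and -0.01 for MCU knockout against control, -0.13 and -0.02 for MCUb knockout against control, and -0.05 and 0.02 between the knockouts. Of 85 gene changes, 11 turned sign somewhere, none past the threshold, and 49 moved by over 1.5 times or turned with 1 array left out; the cause was not tested. With array weights, Map1lc3b was at 0.05 in the MCU knockout and Becn1 at -0.05 in the MCUb knockout. With the Y-linked covariate, Sqstm1 was at -0.19 and Atp6v0d1 at 0.16 in the MCU knockout, and Sqstm1 at -0.05 and Becn1 at -0.02 in the MCUb knockout. No control array had a high Y-linked level, so the fit of this covariate rested mainly on the knockout arrays. With 1 array left out, in the MCU knockout Map1lc3b ran from -0.13 to 0.07, Gabarapl1 from -0.17 to 0.04, Tfeb from -0.07 to 0.51 and Atp6v1a from -0.09 to 0.62. In the MCUb knockout Becn1 ran from -0.15 to 0.13, Sqstm1 from -0.10 to 0.30, Lamp1 from -0.03 to 0.06, Lamp2 from -0.26 to 0.02 and Atg7 from -0.51 to 0.01. Genes at an unadjusted p under 0.05 numbered 2 to 8, 3 to 6 and 1 to 4 in the 3 comparisons; the 8 came without control replicate 2. Deviations from the group means, over probe sets above background on every array, correlated between -0.15 and 0.07 for same-numbered samples. With 3 samples per group these values cannot settle whether such samples share more than a number. The replicate block gave Atg7 a change of -1.16 (adjusted p = 0.267) and 0 calls.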
